A study of Mus musculus with 47 samples.

Results

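The mitochondrial respiratory chain and ATP synthase carry out oxidative phosphorylation, and the genes described here are those that encode their subunits and are named by series of symbols. All array entries whose symbol begins with Nduf followed by a, b, c, s or v, with Cox4 to Cox8, with Uqcr or with Atp5 were taken, which gave 74 of 18138 entries, each of a different gene. Of these, 34 are counted with complex I, 6 with complex III, 16 with complex IV and 14 with complex V, the ATP synthase. The other 4 matched by name but are not subunits: Ndufaf1, an assembly factor of complex I, and Cox4nb, Atp5s and Atp5sl, which are now called Emc8, Dmac2l and Dmac2. The symbols Atp5f1, now Atp5pb, and Uqcr, now Uqcr11, are given as the arrays name them. Ndufa4 is counted with complex I by its name, although its protein is now known as a subunit of complex IV.

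RNA was measured in the lung, the whole blood and the aorta of male C57BL/6J mice, 6 weeks old at exposure, that inhaled GMA-SS, a fume made by gas metal arc welding of stainless steel (40 mg/m3), or air, for 3 hr on each of 10 days. Tissues were taken at 4 hr or at 28 d of recovery, and 47 arrays in 12 groups were analysed, with 4 arrays per group except for the aorta at 4 hr after GMA-SS, which had 3. Lung RNA came from the homogenized whole lung, aortic RNA from the homogenized vessel, and blood RNA from whole blood from which globin RNA had been removed. By their labels blood and aorta came from the same mice and lungs from others, while each beadchip held a single tissue and time point with air arrays in the first positions, so that position and exposure cannot be told apart.

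Complex I takes electrons from NADH, complex III passes them from ubiquinol to cytochrome c, and complex IV, cytochrome c oxidase, hands them to oxygen. These complexes pump protons, and complex V uses the proton gradient to make ATP. Heart, skeletal muscle and brown fat are rich in mitochondria, and several complex IV subunits exist in paired forms, one used in most tissues and the other in heart and skeletal muscle, in lung or in testis. The subunits encoded by mitochondrial DNA do not match the symbols used here and were not analysed.

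An entry counted as above background on an array at a detection p under 0.05, and it was tested in a tissue where this held on at least 3 arrays. By this filter 68 of the 74 entries were tested in lung, 66 in blood and 69 in aorta. Lung arrays had 67 to 69 of them above background (10239 to 10872 of all entries), blood arrays 62 to 66 (8090 to 8406) and aorta arrays 66 to 70 (8678 to 9646). Cox7b2 and Cox8c, both known as testis forms, Ndufs1, the largest iron-sulfur subunit of complex I, and Uqcrq, a small subunit of complex III, were left out in all 3 tissues. Atp5k, a membrane subunit of the ATP synthase, was left out in lung and blood, and Uqcrfs1, the Rieske iron-sulfur protein of complex III, in lung and aorta. Cox4i2, Cox7a1 and Cox8b were left out in blood. Markers of the labelled tissues were measured, with all 8 alveolar type II cell markers in lung, all 8 smooth muscle markers in aorta and 8 of 11 neutrophil and 8 of 9 T cell markers in blood.

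The base level of each entry was given as its percentile among the 18138 entries of the array, that is, the share of entries with a lower signal. Each tissue was ranked on its own, since the tables of the 3 tissues were exported separately, and no test was made between tissues. In mice that breathed air the subunits ranked highest in the aorta. The median percentile of all 74 entries over 8 air arrays was 93.6 in lung, 89.9 in blood and 98.9 in aorta. For 65 of the 74 entries the median was highest in aorta, and for 61 of them every air array of the aorta lay above every air array of lung and blood. The median was highest in blood for 8 entries and in lung for 1, and lowest in blood for 51. On this scale the order was the same for each complex: complex I had median percentiles of 94.0 in lung, 90.1 in blood and 99.04 in aorta, complex III 95.9, 94.3 and 99.6, complex IV 90.7, 77.8 and 98.8, and complex V 93.5, 92.1 and 98.6. Among the entries above background alone, all 74 had a median percentile of 90.0 in lung, 82.8 in blood and 98.01 in aorta. On that scale lung and blood changed places for complex IV, with 92.4 in lung, 95.5 in blood and 99.6 in aorta.

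**Figure D1:**
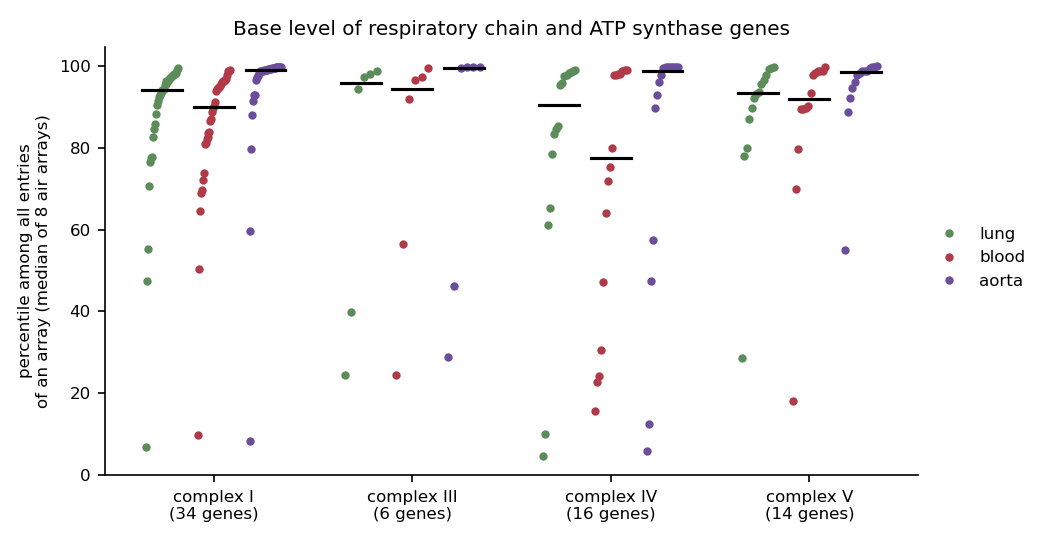
Base levels of the subunit genes in mice that breathed air, as the median percentile of each entry among the 18138 entries of an array over 8 air arrays (vertical axis), by complex (34, 6, 16 and 14 genes) in lung (green), blood (red) and aorta (purple), with black lines at the median. The aorta points are crowded near the top of the scale, and the complex IV points of blood are spread widely, with Cox4i2, Cox7a1, Cox8b, Cox7b2 and Cox8c at the low end.

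The paired forms of complex IV differed in their order over the tissues, and each is set here only against itself in other tissues. Cox4i1, the form of subunit 4 used in most tissues, was at percentiles of 98.99 in lung, 98.2 in blood and 99.9 in aorta. Cox4i2, the form of the same subunit known from lung, was at 84.6 in lung, where all 8 air arrays had it above background, at 24.2 in blood, where none had, and at 47.6 in aorta, where 2 had. It was the 1 entry that ranked highest in lung. Cox6a2, the heart and skeletal muscle form of subunit 6a, was at 95.6 in lung, 64.1 in blood and 97.8 in aorta, and Cox6a1, its counterpart, at 98.3, 99.04 and 99.9.

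The muscle forms Cox7a1 and Cox8b followed the same order as Cox6a2. Cox7a1 was at 83.4 in lung, 47.3 in blood and 99.9 in aorta, and Cox8b at 85.4, 30.7 and 99.9, with no air array of blood above background for either. Cox7a2, the form of subunit 7a used in most tissues, was at 78.6 in lung, 71.8 in blood and 93.1 in aorta. Cox6b2, the testis form of subunit 6b, was at 61.1 in lung, 79.98 in blood and 57.5 in aorta, and Cox6b1, its counterpart, at 97.8, 97.8 and 99.8. The Cox6b2 entry is summed over several probes, as are Atp5j, Ndufb11 and Ndufs4. Ndufa4 was at 99.1, 97.98 and 99.9. Cox8a and Ndufa4l2 matched no entry and were not analysed here.

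In the aorta these levels stood beside brown fat markers that passed the detection filter. All 9 of the brown fat markers were measured there, against 7 of 9 in lung and 2 of 9 in blood. Of the cardiac muscle markers 12 of 14 were measured in the aorta and 11 of 14 in the lung, where 1 was above background on no array. In blood 2 of 14 were measured and 9 were above background on no array. The part that fat or muscle in the aorta samples plays in the base levels was not tested.

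Promoters were examined because the subunit genes are known to share a few promoter motifs. RefSeq windows of 250 bases before to 50 bases after a start site (GRCm38.p6) were found for 58 of the 70 subunit genes, and motifs were searched on both strands. The NRF1 motif, GCGCA and GCGC with any 1 base between them, was present in 13 of them (22.4%), against 5.19% of 27025 genes with such a window. The YY1 motif AAGATGGCG was present in 7 (12.1%), against 1.64%, and the motif of ETS factors and GABPA, CCGGAAG, in 13 (22.4%), against 9.93%. The ERRA motif TCAAGGTCA was present in 1 (1.72%), against 0.466%. The letters CTANNNNTAG, a looser form of the MEF2 motif with any base at each N, were present in 1 (1.72%), against 4.23%. The TATA box letters TATAAA were present in 7 (12.1%), against 15.7%, and the E-box letters CAGCTG in 5 (8.62%), against 18.3%. The letters of the TATA box and the E-box were chosen after sequences had been seen. A match of letters is a description and no binding was measured.

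Windows are shown of Cox6b2, which was called in lung at both times, and of the muscle forms Cox7a1 and Cox8b, which were not called but varied most among lung arrays, with the forms of subunits 6b and 7a used in most tissues beside them. Cox4i2 and Cox6a2, also called in lung, were not matched to a window. They are those of Cox6b2 (chr7:4753045-4753344, minus strand) and Cox6b1 (chr7:30626065-30626364, minus strand), of Cox7a1 (chr7:30183921-30184220, plus strand) and Cox7a2 (chr9:79759804-79760103, minus strand), and of Cox8b (chr7:140900397-140900696, minus strand), all from RefSeq on GRCm38.p6 and read 5′ to 3′ on the gene's strand. Capitals mark the motif letters named above, on either strand.
Cox6b2: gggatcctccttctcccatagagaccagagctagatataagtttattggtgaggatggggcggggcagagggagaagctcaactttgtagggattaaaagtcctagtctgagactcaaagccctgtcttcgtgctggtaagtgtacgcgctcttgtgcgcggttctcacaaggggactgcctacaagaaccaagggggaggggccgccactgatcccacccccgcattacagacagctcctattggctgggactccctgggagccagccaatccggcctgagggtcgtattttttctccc
Cox6b1: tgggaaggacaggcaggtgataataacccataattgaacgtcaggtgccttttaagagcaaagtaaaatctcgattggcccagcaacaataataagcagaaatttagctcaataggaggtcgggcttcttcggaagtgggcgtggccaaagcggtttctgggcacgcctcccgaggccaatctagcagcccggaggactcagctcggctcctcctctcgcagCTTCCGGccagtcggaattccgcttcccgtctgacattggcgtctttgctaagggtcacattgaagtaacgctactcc
Cox7a1: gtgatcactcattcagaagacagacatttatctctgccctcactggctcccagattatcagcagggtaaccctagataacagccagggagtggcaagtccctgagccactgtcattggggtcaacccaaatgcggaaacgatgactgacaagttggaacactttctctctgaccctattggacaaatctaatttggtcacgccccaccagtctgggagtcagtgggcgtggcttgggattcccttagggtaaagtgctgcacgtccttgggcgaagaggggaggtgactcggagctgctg
Cox7a2: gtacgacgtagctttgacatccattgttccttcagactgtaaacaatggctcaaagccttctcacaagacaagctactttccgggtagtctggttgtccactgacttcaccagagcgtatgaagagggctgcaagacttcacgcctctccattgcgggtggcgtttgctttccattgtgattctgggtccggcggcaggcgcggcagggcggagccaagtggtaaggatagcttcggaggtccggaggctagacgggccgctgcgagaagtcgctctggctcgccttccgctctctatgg
Cox8b: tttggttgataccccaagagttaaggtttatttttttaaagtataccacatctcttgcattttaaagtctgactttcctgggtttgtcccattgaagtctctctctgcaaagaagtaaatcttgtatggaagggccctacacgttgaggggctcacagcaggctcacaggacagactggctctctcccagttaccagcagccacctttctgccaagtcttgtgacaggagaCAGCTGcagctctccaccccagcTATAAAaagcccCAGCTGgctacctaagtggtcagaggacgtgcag
Cox6b1 held the ETS motif at bases 223 to 229 of the window, written here as its reverse complement. Cox8b held a TATA box at bases 255 to 260 and E-boxes at bases 232 to 237 and 267 to 272. The windows of Cox6b2, Cox7a1 and Cox7a2 held none of the letters searched.

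In the lung at 4 hr after GMA-SS, few subunit genes differed from air. Calls rest on limma's p, adjusted by Benjamini-Hochberg over every gene tested in the tissue, with a threshold of 0.05, and levels are log2 of the background-corrected, normalized intensity. Of 68 entries 5 were called, all lower, which is 7.35%, against 19.4% of the 11133 lung genes tested, or 9.85% in that direction. The lower calls were 3 of 14 in complex IV, 1 of 4 in complex III, 1 of 33 in complex I and 0 of 13 in complex V. The median log2 fold change was 0.01 in complex I, -0.09 in complex III, -0.13 in complex IV and 0.01 in complex V. Over all 68 it was -0.01, against -0.04 over all lung genes, and 33 of the 68 lay above 0, against 42.6% of all genes. Separation of the 4 GMA-SS from the 4 air arrays was seen for 7 entries, against 26.5% of all lung genes. Without air replicate 4, 19 of the 68 lay above 0 and 7 were called, against 1739 of all 11100 genes tested in that fit. Without air replicate 3, 41 of the 68 lay above 0, and without GMA-SS replicate 1 it was 39. In a lung sample, as in blood and aorta, fewer cells of a type and less RNA per cell cannot be told apart.

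Cox6b2 was lower at both times. At 4 hr it had levels of 7.91, 7.996, 8.18 and 8.06 on the GMA-SS arrays, against 8.60, 8.77, 8.62 and 8.45 on the air arrays. At 28 d it had 7.40, 7.29, 7.81 and 8.09 on the GMA-SS arrays, against 8.56, 8.28, 8.50 and 8.15 on the air arrays. All GMA-SS arrays lay below all air arrays at either time, with the smallest gap at 28 d between GMA-SS replicate 4 and air replicate 4. The log2 fold change was -0.57 at 4 hr (SE 0.15, adjusted p = 0.0111, limma) and -0.72 at 28 d (SE 0.15, adjusted p = 0.00322). In the normalized values that the authors deposited it was -0.19 and -0.20, and was called at both times.

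Cox6a2, the muscle form named above, had levels of 11.63, 11.75, 12.09 and 12.23 on the GMA-SS arrays at 4 hr, against 12.85, 12.76, 12.78 and 12.20 on the air arrays. The groups overlapped through air replicate 4, which lay apart from the other air arrays. The log2 fold change was -0.73 (SE 0.20, adjusted p = 0.0186, limma), and without air replicate 4 it was -0.88 (adjusted p = 0.00892). Leaving out any one of air replicates 1, 2 and 3 or GMA-SS replicates 1 and 2 ended the call, with adjusted p-values of limma from 0.0501 to 0.062. Cox7a2l, known for its part in joining complexes III and IV into supercomplexes, is counted with complex IV by its name, and its function in these mice was not measured. It had 12.82, 12.61, 12.69 and 12.56 on the GMA-SS arrays, against 12.85, 12.98, 12.96 and 12.89 on the air arrays. These groups did not overlap, and the log2 fold change was -0.25 (SE 0.07, adjusted p = 0.0249, limma). This call was lost without air replicate 2 or 3 or GMA-SS replicate 2 or 4, with adjusted p-values of limma up to 0.0785.

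Uqcrh, the hinge protein of complex III, and Ndufv1, the complex I subunit that binds NADH, fell by small amounts. Uqcrh had levels of 14.04, 14.15, 14.23 and 14.15 on the GMA-SS arrays at 4 hr, against 14.30, 14.38, 14.39 and 14.21 on the air arrays (log2 fold change -0.17, SE 0.05, adjusted p = 0.0265, limma). Ndufv1 had 13.46, 13.41, 13.47 and 13.57 on the GMA-SS arrays, against 13.68, 13.63, 13.64 and 13.63 on the air arrays (log2 fold change -0.17, SE 0.06, adjusted p = 0.0442, limma). The Uqcrh groups overlapped at GMA-SS replicate 3 and air replicate 4, and the Ndufv1 groups did not overlap. Both calls were lost when the arrays were scaled to their 75th percentile, when no detection filter was applied and in the normalized values that the authors deposited. The Uqcrh call was also lost without air replicate 2 or 3 or GMA-SS replicate 1 or 2, and the Ndufv1 call without any single array but GMA-SS replicate 4, with limma's adjusted p-values up to 0.0893 and 0.131. Among genes not called, and named after their values were seen, Ndufb10, a membrane arm subunit of complex I, had a log2 fold change of -0.31 (adjusted p = 0.0538), Atp5f1, a stator stalk subunit of the ATP synthase, 0.28 (adjusted p = 0.0941) and Cox7b, a small subunit of complex IV, 0.40 (adjusted p = 0.107, limma).

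**Figure D2:**
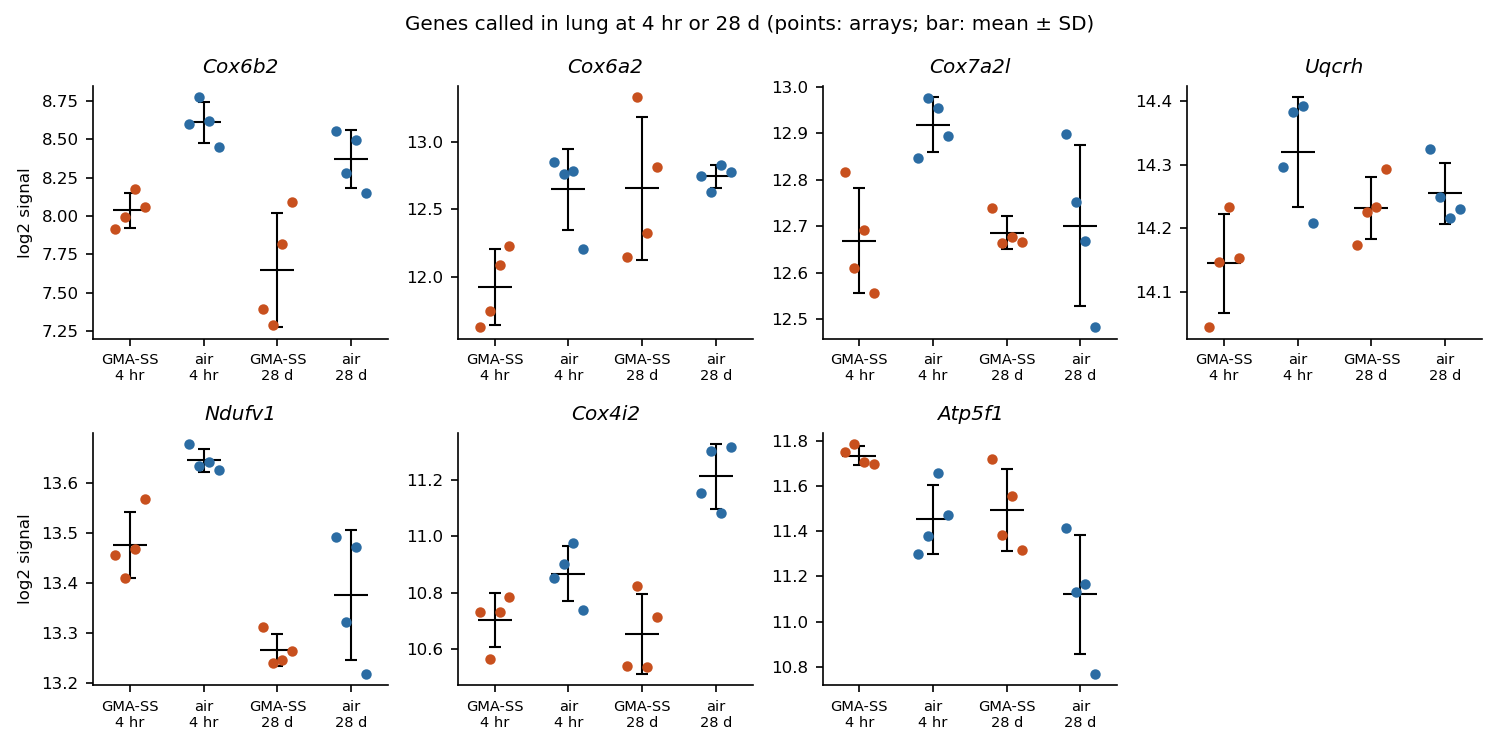
Levels in lung of 7 subunit genes called at either time, as log2 intensity (vertical axis), with GMA-SS left of air at 4 hr and at 28 d. Points are arrays and bars are mean ± SD of 4 arrays. Cox6b2 lies below air at both times, Cox4i2 at 28 d, and the overlaps of Cox6a2 and Uqcrh at 4 hr come from air replicate 4.

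At 28 d in the lung, 4 of 68 entries were called (5.88%, against 16.3% of all lung genes), 2 lower and 2 higher, against 8.67% and 7.64% of all lung genes in these directions. The lower calls were Cox4i2 and Cox6b2, both of complex IV, and Atp5f1 of complex V was among the higher calls. The median log2 fold change was -0.04 in complex I, -0.01 in complex III, -0.08 in complex IV and 0.02 in complex V, and -0.02 over all 68, against -0.04 over all lung genes. Of the 68, 25 lay above 0, against 39% of all lung genes, and 4 had groups that did not overlap, against 15.7%.

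Cox4i2, the lung form, had levels of 10.54, 10.82, 10.54 and 10.72 on the GMA-SS arrays at 28 d, against 11.15, 11.30, 11.08 and 11.31 on the air arrays. Each GMA-SS array lay below each air array, and the log2 fold change was -0.56 (SE 0.08, adjusted p = 0.00015, limma). At 4 hr the levels of Cox4i2 were 10.73, 10.56, 10.73 and 10.78 on the GMA-SS arrays and 10.85, 10.90, 10.97 and 10.74 on the air arrays, which overlapped. The effect at 28 d minus that at 4 hr was -0.39 on the log2 scale (limma, adjusted p = 0.202), and no subunit gene was called in this difference, in which 0.584% of all lung genes were called. In the same difference, Cox6a2 had 0.64 (unadjusted p = 0.0417, limma across all genes), Cox7a2l 0.23 and Atp5b, the catalytic beta subunit of the ATP synthase, 0.14. With Cox4i2 these were the 4 entries with an unadjusted p under 0.05, against 7.35% of all lung genes. GMA-SS replicate 2 at 28 d was high in skeletal muscle markers, as described below. Without it 2 entries had such a p, against 7.49% of all genes in that fit. With array weights the difference for Cox4i2 was -0.45 and was called (limma, adjusted p = 0.0324).

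Atp5f1 had levels of 11.72, 11.38, 11.55 and 11.32 on the GMA-SS arrays at 28 d, against 11.41, 11.13, 11.17 and 10.77 on the air arrays. The lowest air array was replicate 4 and the groups overlapped. The log2 fold change was 0.37 for Atp5f1 (SE 0.11, adjusted p = 0.0328, limma). In a fit of the 2 groups alone it was not called. The Atp5f1 call was lost without air replicate 2, 3 or 4 or GMA-SS replicate 1 or 3, with limma's adjusted p-values up to 0.118.

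Across all lung arrays, Cox8b, Cox7a1 and Cox6a2 had the largest SDs of all subunit genes tested, at 0.61, 0.54 and 0.46 on the log2 scale. At 4 hr Cox8b had levels of 9.84, 10.63, 10.54 and 10.90 on the GMA-SS arrays, against 11.66, 11.23, 11.21 and 10.38 on the air arrays, and Cox7a1 had 9.62, 10.00, 10.31 and 10.60 on the GMA-SS arrays, against 11.26, 10.86, 11.19 and 10.13 on the air arrays. In both genes, as in Cox6a2, air replicate 4 was the low one of its group. The log2 fold changes at 4 hr were -0.64 for Cox8b (SE 0.37, adjusted p = 0.254, limma) and -0.73 for Cox7a1 (SE 0.30, adjusted p = 0.107). Without air replicate 4, Cox7a1 was called at -0.97 (adjusted p = 0.0365), while Cox8b was not, at -0.89 (limma, adjusted p = 0.135).

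Cardiac muscle markers were measured on the same arrays. The mean log2 level of the cardiac muscle markers at 4 hr was 10.32, 10.12, 10.61 and 10.91 on the GMA-SS arrays and 11.26, 11.07, 11.12 and 10.78 on the air arrays, with air replicate 4 again the lowest of its group. Of the 11 cardiac muscle markers measured 5 were called lower at 4 hr and 3 at 28 d, and none lay above 0 at either time, with medians of -0.61 and -0.43. Over all lung genes 9.85% were called lower at 4 hr and 8.67% at 28 d, and 42.6% and 39% lay above 0. Their summed signal ranged from 24440.6 to 39607.5 on the GMA-SS arrays and from 38211.4 to 53510.8 on the air arrays at 4 hr, and from 20505 to 40101.6 on the GMA-SS arrays and from 39256.7 to 42759.3 on the air arrays at 28 d. Of the 14 listed, 1 was above background on no lung array. The part of cardiac muscle in the lung samples in these results was not tested.

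A single lung array held skeletal muscle RNA at a high level. GMA-SS replicate 2 at 28 d had a mean log2 level of the skeletal muscle markers of 12.27, which was 4.94 above the median of the lung arrays, while each of the other 15 lay between 6.90 and 7.65. On this array Cox6a2 was 13.33, Cox7a1 11.64 and Cox8b 12.22, each the highest of its group. The other GMA-SS arrays at 28 d had 12.15, 12.33 and 12.81 for Cox6a2, 9.85, 10.43 and 10.82 for Cox7a1, and 9.82, 10.39 and 10.90 for Cox8b. The air arrays had 12.74, 12.63, 12.83 and 12.77 for Cox6a2, 10.91, 10.75, 10.93 and 10.77 for Cox7a1, and 11.13, 10.88, 11.11 and 10.87 for Cox8b. With all arrays the log2 fold changes at 28 d were -0.09, -0.16 and -0.16 for Cox6a2, Cox7a1 and Cox8b, and without this array they were -0.31, -0.48 and -0.62, with none called. Without it Cox4i2 and Cox6b2 were still called lower, at -0.61 and -0.60, and 3 of the 68 entries were called in all, against 1757 of 11052 genes in that fit.

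**Figure D3:**
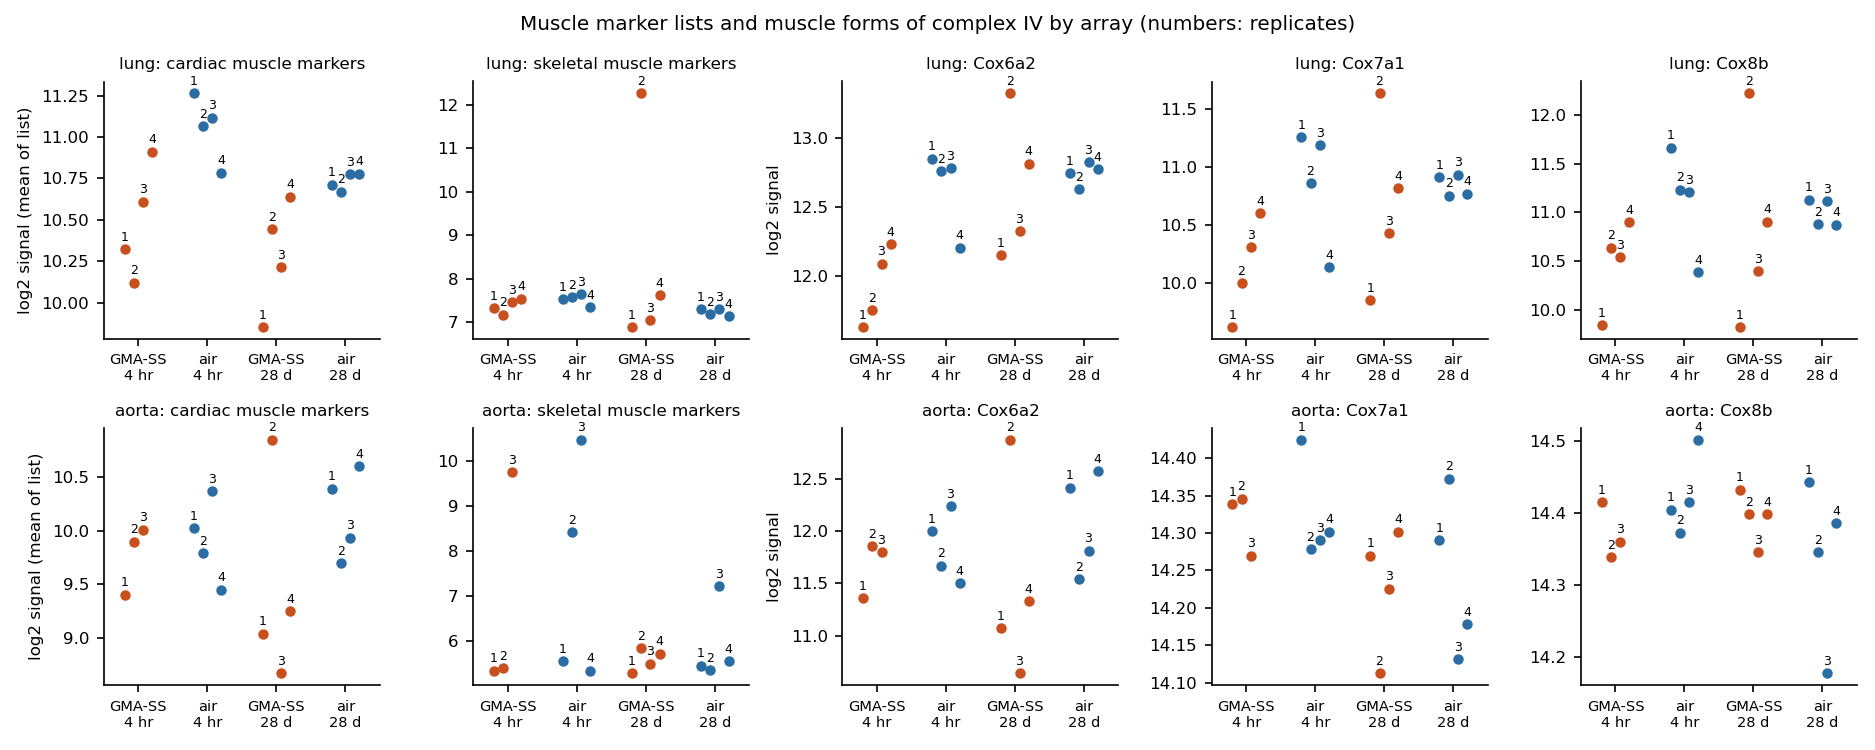
Mean log2 levels of the cardiac and skeletal muscle markers and log2 intensity of Cox6a2, Cox7a1 and Cox8b (columns) on each array of lung (top) and aorta (bottom), with GMA-SS left of air at each time and the replicate number at each point. In lung, GMA-SS replicate 2 at 28 d is high in the skeletal markers and in the 3 muscle forms. In aorta the skeletal markers are high on 4 arrays. Cox7a1 and Cox8b, near the top of the normalized scale in aorta, stay within 14.11 to 14.43 and 14.18 to 14.50 on all aorta arrays.

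Other genes of the pathway in lung were described by lists. None of the measured genes was called at either time among the complex II subunits (2 measured), cytochrome c and cytochrome c1 (2), assembly factors of complexes I (6) and III (4), ATP synthase assembly and inhibitor genes (3), adenine nucleotide and phosphate carriers (2) and uncoupling proteins (2). Of 15 complex IV assembly factors 1 was called lower, at 28 d alone. At 4 hr, lower calls were made for 2 of 13 citric acid cycle enzymes, which were the isocitrate dehydrogenase genes Idh3g and Idh3a (log2 fold changes -0.16 and -0.20). They were also made for 2 of 12 fatty acid oxidation enzymes, Acadm and Etfb (-0.25 and -0.20), and for 1 of 9 regulators of mitochondrial biogenesis, Tfb2m (-0.26), and none of these 3 lists had a call at 28 d. Over all lung genes 9.85% were called lower at 4 hr and 8.67% at 28 d. Of 14 glycolytic enzymes 9 were called higher at 4 hr and 5 at 28 d, against 9.52% and 7.64% of all lung genes, with medians of 0.37 and 0.14. In the same lungs 6 of 7 T cell markers were called higher at both times, and 4 of 7 smooth muscle markers lower at both times. Of 7 endothelial markers 1 was called lower at 4 hr and 4 at 28 d, with mean log2 levels of 12.35 to 12.63 on the GMA-SS arrays and 12.65 to 12.86 on the air arrays at 4 hr, and of 12.40 to 12.61 on the GMA-SS arrays and 12.65 to 12.86 on the air arrays at 28 d. Of 8 alveolar type II cell markers 3 were called higher at each time, with 14.57 to 14.65 on the GMA-SS arrays and 14.43 to 14.47 on the air arrays at 4 hr, and 14.47 to 14.53 on the GMA-SS arrays and 14.32 to 14.39 on the air arrays at 28 d. Platelet markers were called lower for 5 of 7 at 4 hr and 2 at 28 d, and the part of these cell types in the subunit results was not tested.

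**Figure D4:**
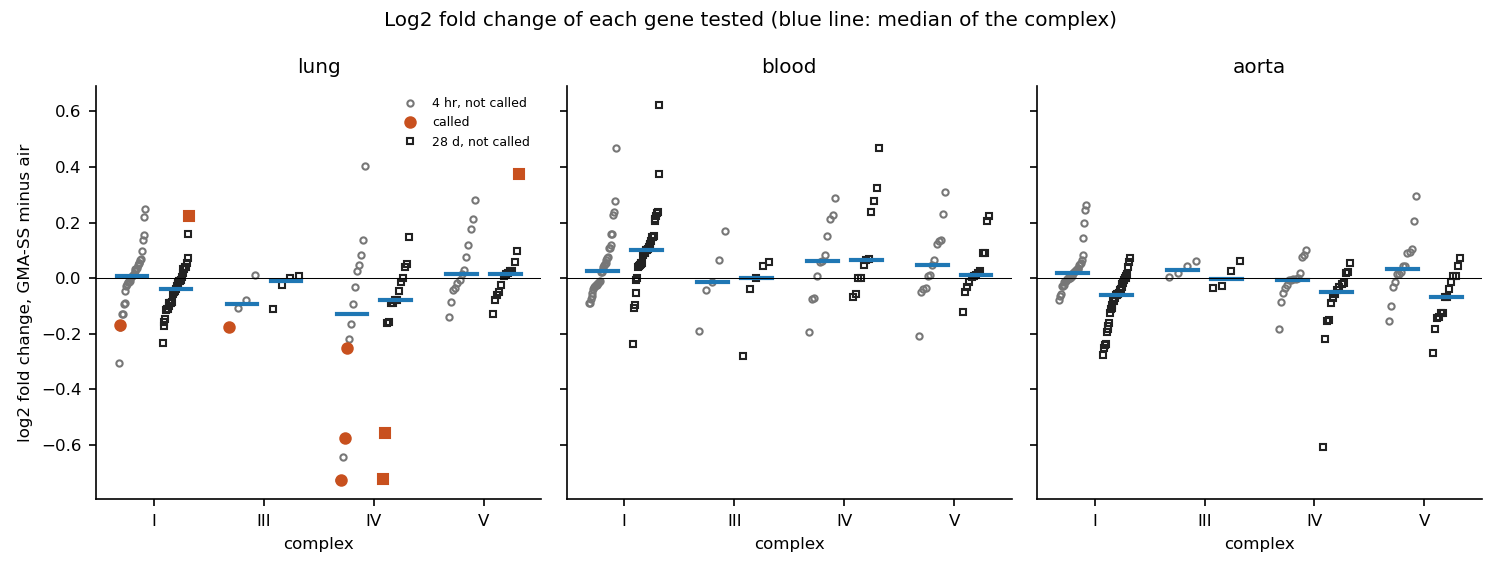
Log2 fold changes of GMA-SS over air (vertical axis) of each subunit gene by complex in lung, blood and aorta (panels), with open grey circles for 4 hr, open black squares for 28 d, filled orange symbols for called genes and blue lines for the median of each complex. Called genes appear in the lung panel alone, and most of the complex I squares lie above 0 in blood and below 0 in aorta.

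In blood no subunit gene was called at either time. At 4 hr 1 of 9259 blood genes was called (0.0108%), and at 28 d none was (0%). At 4 hr, 40 of 66 entries lay above 0, against 48.3% of all blood genes, and 7 had an unadjusted p under 0.05 (10.6%, against 5.04%), 6 of them higher (against 2.83% of all genes). Without GMA-SS replicate 1 at 4 hr 33 lay above 0, and without GMA-SS replicate 4 it was 50. The count with an unadjusted p under 0.05 was 3 or 4 without air replicate 1, 3 or 4 or GMA-SS replicate 3 or 4. In these fits it held for 3.5% to 4.84% of all genes. Ndufb9, an accessory subunit of the membrane arm of complex I, had levels of 8.39, 8.20, 8.94 and 8.58 on the GMA-SS arrays, against 8.03, 7.99, 7.91 and 8.31 on the air arrays, which overlapped (log2 fold change 0.47, SE 0.14, adjusted p = 0.652, limma). Atp5a1, the alpha subunit of the ATP synthase, had 9.77, 9.59, 9.74 and 9.80 on the GMA-SS arrays, against 9.57, 9.47, 9.15 and 9.47 on the air arrays, with no overlap (0.31, adjusted p = 0.801, limma). Ndufb5, also of the membrane arm, had a log2 fold change of 0.28, and Uqcr, a small complex III subunit, had 11.34, 11.22, 11.26 and 11.28 on the GMA-SS arrays, against 11.55, 11.39, 11.46 and 11.45 on the air arrays, with no overlap (-0.19, adjusted p = 0.981, limma).

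At 28 d in blood, 51 of 66 entries lay above 0, against 49.2% of all blood genes, and in complex I it was 28 of 33. The median log2 fold change was 0.10 in complex I, 0.00 in complex III, 0.07 in complex IV and 0.01 in complex V, and 0.06 over all entries, against -0.00 over all genes. An unadjusted p under 0.05 was found for 7 entries, all higher (10.6%, against 3.34% of all genes in that direction). Ndufb2, a small membrane arm subunit, had levels of 7.89, 7.52, 7.61 and 7.54 on the GMA-SS arrays, against 7.13, 7.31, 7.45 and 7.18 on the air arrays, with no overlap (log2 fold change 0.38, SE 0.12, adjusted p = 0.608, limma). Ndufb4, of the same arm, had 7.66, 6.50, 6.70 and 7.003 on the GMA-SS arrays, against 6.79, 5.73, 6.24 and 6.61 on the air arrays (0.62, SE 0.22), and Cox7b had 8.51, 7.90, 7.37 and 8.29 on the GMA-SS arrays, against 7.48, 7.53, 7.49 and 7.69 on the air arrays (0.47, SE 0.20). GMA-SS replicate 1 was the highest array for each of these 3 genes.

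The count at 28 d in blood depended on single arrays. The median deviation of the subunit genes from the mean of the air arrays was 0.22, 0.09, -0.03 and 0.03 on the GMA-SS arrays and -0.02, 0.05, 0.05 and -0.08 on the air arrays, so that GMA-SS replicate 1 lay highest. Without it 36 of 66 entries lay above 0 and 4 had an unadjusted p under 0.05 (6.06%, against 5.99% of all genes in the same fit), and the complex I median was 0.03. Without GMA-SS replicate 3, 54 lay above 0 and 14 had such a p (21.2%, against 8.21% of all genes in that fit). Such a p was found for 4 entries without air replicate 1 or 2 or GMA-SS replicate 4, against 4.39%, 4.19% and 9.72% of all genes. With array weights 43 lay above 0, and 10 had such a p, 6 higher and 4 lower, against 16.9% of all genes in that fit. The T cell markers at 28 d had a summed signal of 13286.3 to 14886.1 on the GMA-SS arrays and of 15465.8 to 17161.7 on the air arrays, with 3 of 8 at an unadjusted p under 0.05 and none called, and 1 of 9 was above background on no array. The citric acid cycle enzymes, of which 3 of 12 had such a p and none was called, had a median of -0.04. Over all blood genes 7.77% had such a p at 28 d in the main fit, with both directions counted. The part of T cells in the subunit values was not tested. In the difference between the times no subunit gene was called (0% of all blood genes), and Uqcr was the 1 entry with an unadjusted p under 0.05, against 3.61% of all genes (0.25, unadjusted p = 0.0464, limma across all genes).

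**Figure D5:**
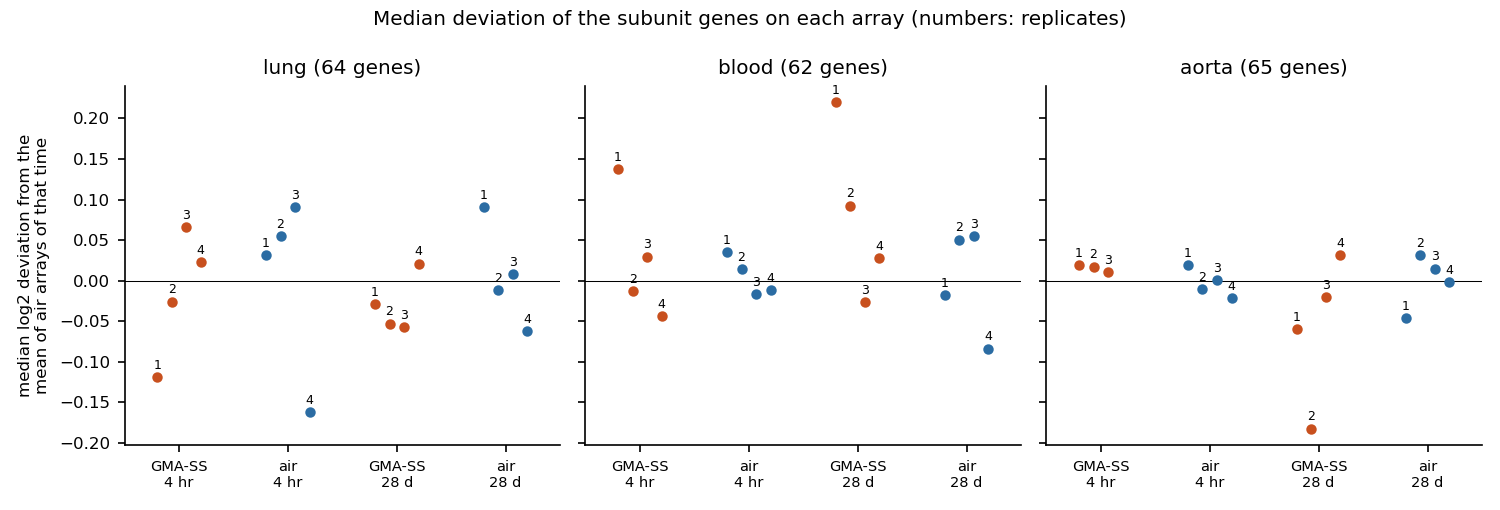
Median log2 deviation of the subunit genes on each array from the mean of the air arrays of the same tissue and time (vertical axis), over 64 genes in lung, 62 in blood and 65 in aorta, with GMA-SS left of air. Each point is an array. In blood at 28 d GMA-SS replicate 1 is highest at 0.22, and in aorta at 28 d GMA-SS replicate 2 is lowest at -0.18.

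In the aorta no subunit gene was called at either time, and neither was any of the 9850 aortic genes tested (0% at 4 hr and 0% at 28 d). At 4 hr, 40 of 69 entries lay above 0, against 47.6% of all genes, and 5 had an unadjusted p under 0.05 (7.25%, against 3.86%). Atp5e, the epsilon subunit of the central stalk of the ATP synthase, had levels of 9.35, 9.41 and 9.60 on the 3 GMA-SS arrays, against 9.24, 9.21, 9.09 and 9.11 on the air arrays (log2 fold change 0.29, SE 0.10, adjusted p = 0.999, limma). Ndufb9 had 11.24, 11.40 and 11.58 on the GMA-SS arrays, against 11.19, 11.09, 11.20 and 11.09 on the air arrays (0.26), and Atp5a1 had 12.33, 12.39 and 12.53 on the GMA-SS arrays, against 12.29, 12.19, 12.10 and 12.27 on the air arrays (0.21). In all 3 genes the GMA-SS arrays lay above the air arrays, and GMA-SS replicate 3 was the highest. Such a separation was seen for 5 of the 69 entries, against 3.61% of all genes in that direction. For 3 entries the GMA-SS arrays lay wholly below the air arrays, against 5.3% of all genes. Atp5s, which is not a subunit, had a log2 fold change of -0.23, and Atp5c1, the gamma subunit of the rotor, -0.16.

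Of the aorta arrays at 4 hr, 3 stood high in skeletal muscle markers. Their mean log2 level lay 4.201 above the median of the aorta arrays on GMA-SS replicate 3, and 2.86 and 4.92 above it on air replicates 2 and 3. At 28 d air replicate 3 lay 1.68 above it, and no aorta array stood 1 or more above the median in brown fat or fat markers. Without these 4 arrays the log2 fold changes at 4 hr were 0.21 for Atp5e, 0.18 for Ndufb9 and 0.09 for Atp5a1, 2 entries, both lower, had an unadjusted p under 0.05, against 2.72% of all genes in that fit, and 40 lay above 0. None of these 3 genes was among the 2. Leaving out air replicate 2 alone, GMA-SS replicate 2 alone or GMA-SS replicate 3 alone also left 2 entries with such a p. Over all genes the shares in these fits were 2.87%, 2.29% and 3.91%. Cox7a1 and Cox8b showed little spread over all 15 aorta arrays, at 14.11 to 14.43 and 14.18 to 14.50. Both lay near the top of the normalized scale, where Cox4i1 (14.19 to 14.36) and Ndufb8 (14.37 to 14.51) also spread little. The part of muscle or of fat in their levels was not tested.

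At 28 d in the aorta, 53 of 69 entries lay below 0, against 56.3% of all genes, and 13 had an unadjusted p under 0.05, all lower (18.8%, against 3.85% of all genes in that direction). The lower entries were most numerous in complex I, with 26 of 33 below 0 and 7 with such a p, and the median log2 fold change was -0.06 in complex I, -0.00 in complex III, -0.05 in complex IV and -0.07 in complex V. Over all entries it was -0.06, against -0.02 over all genes. The GMA-SS arrays lay wholly below the air arrays for 5 entries, against 1.24% of all genes in that direction.

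Ndufb7, a membrane arm subunit of complex I that faces the intermembrane space, had levels of 9.59, 9.58, 9.84 and 9.78 on the GMA-SS arrays at 28 d, against 9.89, 10.04, 10.01 and 9.96 on the air arrays, with no overlap (log2 fold change -0.28, SE 0.07, adjusted p = 0.556, limma). Atp5o, the subunit that ties the stator stalk to the catalytic head of the ATP synthase, had 9.87, 9.67, 10.01 and 10.06 on the GMA-SS arrays, against 10.01, 10.04, 10.51 and 10.13 on the air arrays (-0.27), and Ndufb2 had 10.03, 9.84, 10.23 and 10.49 on the GMA-SS arrays, against 10.24, 10.53, 10.45 and 10.39 on the air arrays (-0.25). Both of the last overlapped, and in all 3 genes GMA-SS replicate 2 was the lowest array.

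The entries with the lowest p were named after their values were seen. Ndufs8, an iron-sulfur subunit of complex I, had levels of 12.77, 12.69, 12.83 and 12.85 on the GMA-SS arrays, against 12.94, 12.97, 13.00 and 13.00 on the air arrays (log2 fold change -0.19, SE 0.04, adjusted p = 0.451, limma). Ndufb10 had 10.11, 9.98, 10.20 and 10.12 on the GMA-SS arrays, against 10.28, 10.38, 10.37 and 10.34 on the air arrays (-0.24, SE 0.05, adjusted p = 0.451), and Cox7a2l had 11.02, 11.04, 11.04 and 11.05 on the GMA-SS arrays, against 11.16, 11.19, 11.15 and 11.25 on the air arrays (-0.15, SE 0.05, adjusted p = 0.714, limma). None of these groups overlapped. Without GMA-SS replicate 2 their log2 fold changes were -0.16, -0.20 and -0.15, and that of Ndufb7 was -0.24.

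The lower counts in the aorta at 28 d rested in part on that array. The median deviation of the subunit genes from the mean of the air arrays was -0.06, -0.18, -0.02 and 0.03 on the GMA-SS arrays and -0.05, 0.03, 0.01 and -0.00 on the air arrays. Over all 9850 genes the same median was -0.09 on GMA-SS replicate 2. Without GMA-SS replicate 2, 38 of 69 entries lay below 0 and 5 had an unadjusted p under 0.05 (7.25%, against 9.58% of all genes in the same fit), and the complex I median was -0.00. Without air replicate 2, 5 entries had such a p, against 5.39% of all genes in that fit, with 52 below 0. Without air replicate 3, the array high in skeletal muscle markers, 5 lower entries and 1 higher one had it (8.7%, against 7.2%), with 56 below 0. In a fit of the 2 groups alone 4 entries had such a p, against 3.19% of all genes. In the difference between the times no subunit gene was called (0% of all aorta genes), while 9 had an unadjusted p under 0.05, all lower (13%, against 2.2% of all genes in that direction), among them Ndufb9 at -0.51 (unadjusted p = 0.00396, limma across all genes), Ndufb2 at -0.45 and Atp5e at -0.36. Without the 4 arrays high in skeletal muscle markers 2 entries had such a p, against 2.95% of all genes in that fit.

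Cox6a2 varied most of the subunit genes in the aorta, with an SD of 0.59 on the log2 scale over all arrays. At 28 d its levels were 11.07, 12.87, 10.64 and 11.33 on the GMA-SS arrays, against 12.41, 11.54, 11.81 and 12.57 on the air arrays, and GMA-SS replicate 2 was the highest of all. At 4 hr they were 11.36, 11.86 and 11.79 on the GMA-SS arrays, against 11.9995, 11.67, 12.23 and 11.50 on the air arrays. The log2 fold change at 28 d was -0.61 (SE 0.37, adjusted p = 0.758, limma), and -1.07 without GMA-SS replicate 2 (SE 0.25, adjusted p = 0.111). On the same arrays the cardiac muscle markers had mean log2 levels of 9.04, 10.85, 8.67 and 9.25 after GMA-SS and 10.39, 9.69, 9.93 and 10.60 after air, so that the order of the 8 arrays was the same as for Cox6a2. Of the 12 cardiac muscle markers measured 2 had an unadjusted p under 0.05, both lower, against 3.85% of all genes in that direction. The median of the 12 markers was -0.70, against -0.02 over all genes. Their summed signal ranged from 12577.5 to 63528.7 on the GMA-SS arrays and from 27120.6 to 54445 on the air arrays. The part of cardiac muscle in the aorta samples was not tested.

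The fat in the aorta samples was also set beside the subunit genes at 28 d. The mean log2 level of the brown fat markers was 10.96, 10.48, 10.98 and 10.92 on the GMA-SS arrays and 10.81, 10.88, 11.06 and 10.78 on the air arrays, and that of the fat markers 11.36, 11.09, 11.51 and 11.45 on the GMA-SS arrays and 11.36, 11.54, 11.47 and 11.49 on the air arrays. GMA-SS replicate 2, on which the subunit genes were lowest, was also the lowest in both lists, and the part of fat in the result was not tested. Among the pathway lists in aorta at 28 d no gene was called. The complex II subunits and the adenine nucleotide and phosphate carriers each had a median of -0.14, against -0.02 over all genes. Of the complex I assembly factors 0 of 6 lay above 0, and of the complex IV assembly factors 1 of 15, against 43.7% of all aorta genes. These lists were not examined without GMA-SS replicate 2.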

How the data were processed

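The authors deposited, for each array of 1 color, the average bead signal of every entry as an intensity, exported without normalization between arrays. Each signal has a deposited detection p-value, which ranks it against the array's negative control beads, in steps of 1 in 798. The authors also deposited normalized log2 values of the sample tables, for which the paper names lumi and limma, and these served as an alternative. All 141 value columns were mapped to samples. Symbols stand in the deposited aorta table alone, so lung and blood rows were joined to it by probe identifiers, of which all 18138 are the same.

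Background was removed with normexp in limma 3.58.1 (R 4.3.3), using the negative controls that the detection p-values imply, 16 was added, log2 was taken and the arrays of a tissue were quantile-normalized. An entry needed a detection p under 0.05 on 3 or more of the tissue's arrays, with the brightest entry kept for each gene, which left 11133 genes in lung, 9259 in blood and 9850 in aorta. Group means of each tissue were fitted together in limma, with a variance trend, and contrasts were taken of GMA-SS over air at 4 hr and at 28 d and of the difference of these effects. P-values were adjusted by the method of Benjamini and Hochberg over all genes tested. The p-values measure the spread between arrays of different mice, and the number of arrays limits their precision. The procedure was tested on simulated data.

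The subunit genes, the gene lists and the tests were chosen with earlier results of these data known. Genes named in the text are, in each comparison and in the differences between times, up to 6 called genes with the highest and 6 with the lowest fold change or, with fewer than 3 called, also up to 3 in each direction with the largest fold changes among those at an unadjusted p under 0.05. The paired forms of complex IV, the 3 genes of largest SD in lung and the gene of largest SD in aorta were also named. So were genes left out by the filter and up to 4 genes per list, and others are said to be named after their values were seen. Some results are not reported here. The alternatives left out the background correction, scaled arrays to the 75th percentile, dropped or tightened the detection filter, kept bright entries whatever their detection p, or used every entry, array weights, the 2 groups alone, the replicate number as a block or the authors' normalized log2 values. Each array, and the arrays high in muscle or fat markers, were also left out.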

Additional observations from a re-analysis of the deposited data

Results flagged for a closer look

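Cox6a2 in the air lungs at 4 hr was the 1 measure of 43 tested groups of 4 arrays in which a single array lay far from the others. Air replicate 4 had a log2 level of 12.2, below the next lowest array at 12.76, and this gap was 0.862 of the whole range of the group. By chance about 1 in 20 groups would show such a gap. On the same array the cardiac muscle markers, Cox7a1 and Cox8b were also the lowest of their group, and their part in the value of Cox6a2 was not tested.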

How the results depend on the processing

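In lung Cox6b2 at both times and Cox4i2 at 28 d kept direction and call under all 19 alternatives, with log2 fold changes of Cox6b2 from -0.63 to -0.19 at 4 hr and from -0.87 to -0.20 at 28 d, smallest in the authors' normalized values at both times, and of Cox4i2 from -0.61 to -0.48. No called gene, and none chosen at an unadjusted p under 0.05, turned its direction, and other named genes were not run through all of the alternatives. The count of 5 genes called in lung at 4 hr, all lower, was 3 with no detection filter, again all lower. It was 9 with array weights (7 lower, 2 higher) and 8 in a fit of the 2 groups alone (6 lower, 2 higher). Over all genes the calls in these fits were 1908 of 17932, 2876 of 11133 and 2652 of 11133, against 2157 of 11133 in the main fit. The count of 5 ranged from 1 to 7 with single arrays left out, being 1 without air replicate 2, air replicate 3 or GMA-SS replicate 2, 2 without GMA-SS replicate 1, 3 without air replicate 1 and 7 without air replicate 4. Over all genes 1521 to 1922 were called with single arrays left out. The count of 4 at 28 d was 2 in the 2 groups alone and ranged from 2 to 5 with single arrays left out, being 2 without air replicate 3 or 4 or GMA-SS replicate 1 or 3. Over all genes 1161 were called in the 2 groups alone and 1086 to 2318 with single arrays left out, against 1816 in the main fit. In the difference between the times 1 subunit gene was called with array weights, against 124 of all 11133 genes. Without the lung array high in skeletal muscle markers, an alternative chosen after the data had been seen, the counts were 6 at 4 hr and 3 at 28 d. Over all 11052 genes of that fit they were 2252 and 1757. In blood and aorta the count was 0 under every alternative. Uqcrh and Ndufv1 lost their calls under 3 changes of scaling, filter or source of values, as given above. At 4 hr after GMA-SS the median of complex III in blood (-0.02) was 0.0775 with 75th percentile scaling and ranged from -0.0519 to 0.0883 with single arrays left out. In aorta at 4 hr the median of complex I (0.02) was 0.0022 with 75th percentile scaling, that of complex IV (-0.01) was -0.0301 in the authors' values, and that of complex V (0.03) was 0.0255 with 75th percentile scaling, 0.0426 with the replicate block, 0.025 in the authors' values and 0.0442 without arrays high in muscle markers, and it ranged from 0.0238 to 0.0621 with single arrays left out. Among entries above background the base levels were 89.95 in lung, 82.8 in blood and 98.01 in aorta. The replicate numbers did not pair arrays, since the correlations of arrays of the same number lay between -0.33 and 0.497 and no comparison had all of them over 0.1. With the replicate number as a block, the counts called in lung were 5 at 4 hr and 4 at 28 d, and 0 in blood and aorta. Over all 11133 lung genes 2282 and 1931 were called in this fit. The causes of these changes were not tested. Entries near background, such as Cox4i2 in blood, have levels that the signal over background does not resolve.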
